A study of Mus musculus with 9 samples.

Results

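One dendritic cell subset of the mouse spleen, cDC1, was set against the 2 other subsets of the series, cDC2 and mcDC, as one. A gene was a member when its lowest cDC1 library lay above all 6 cDC2 and mcDC libraries, or its highest cDC1 library below all 6, with an RPKM (reads scaled to gene length in kb and to library size in M) above 1 in at least 2 of the 9 libraries. Of 14862 genes listed, 11971 met that filter on low values and 2679 of them were members, 1133 higher in cDC1 and 1546 lower. The members were chosen by these same RPKM values, so the distance between cDC1 and the others is given as a description, with no test. Tests are given for mcDC against cDC2. The rule did not compare these subsets, but it used their libraries and bounds both on the same side, so this contrast is not independent of the choice either.

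The spleen donors of all 9 libraries were C57Bl/6 mice, 8 to 12 weeks old, and each of cDC1, cDC2 and mcDC had 3 libraries. The labels name no treatment, gene deletion or transgene in any group, and the markers used in the sort are not stated. Nothing in them tells pooled animals from single ones, or 3 animals from 1, so the p-values speak for variation among these libraries, perhaps only technical. A directional kit was used on total RNA.

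Conventional dendritic cells take up antigen and present it to T cells. Those of type 1, cDC1, carry the CD8 alpha chain in the mouse spleen, take up dead cells, move their antigens onto MHC class I for CD8 T cells and are a main source of IL-12. Type 2 cells, cDC2, sit at the edge of the white pulp, depend on Notch2 and the lymphotoxin receptor, present mainly on MHC class II to CD4 T cells and carry SIRP alpha, DCIR2 and CD11b. The abbreviation mcDC is used in the field for merocytic dendritic cells, known for storing particles of apoptotic cells and for priming T cells against self antigens, but the labels do not expand it.

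The depth was 9.68 to 11.01 M recovered reads for cDC1, 9.19 to 12.43 M for cDC2 and 5.14 to 8.22 M for mcDC. A single read on 1 kb of gene came to 0.080 RPKM in the deepest library and 0.195 in the shallowest. cDC1 replicate 1 was the cDC1 library nearest to the other subsets at 560 of the 1133 higher members and at 881 of the 1546 lower ones. Without it the rule gave 1435 higher and 2187 lower genes. Plasmacytoid dendritic cell markers summed to 315 RPKM in that library and to 199 and 227 in cDC1 replicates 2 and 3. Its sums for monocyte markers (591 against 387 and 486), B cell markers (49.2 against 41.2 and 39.7) and stromal markers were also the highest of cDC1. Its sums for NK cell, neutrophil, and erythroid and platelet markers were the lowest. The part of any of these cells in its position was not tested. mcDC replicate 3 was the shallowest library, with 12.3% of genes at 0, and without it the counts were 1474 and 2209. In bulk samples such as these, fewer cells of a type and less RNA per cell cannot be told apart.

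Members made up 9.46% of the genes that passed the filter in the higher direction and 12.9% in the lower, so every count below stands against these shares. Most of the separations were narrow. The nearest libraries lay at least 2-fold apart on RPKM + 1 at 160 higher and 134 lower members, at least 4-fold at 39 and 29, and at least 10-fold at 5 and 1. The median gap between nearest libraries was 0.28 on the log2 scale for higher members and 0.21 for lower ones, and the median difference between the cDC1 mean and the mean of the other subsets was 0.83 and -0.75. The same rule with cDC2 set against the other 2 subsets gave 1499 genes, and with mcDC it gave 818.

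The balance of directions depended on scaling. As deposited, 42.3% of members were higher in cDC1. The share was 55.5% after quantile normalization (1488 higher and 1189 lower, or 1481 and 1187 within the genes passing as deposited) and 56.0% after median-of-ratios scaling, while the median of all genes moved from -0.06 to 0.01 in both. All 160 and all 134 members with a margin of 2-fold remained members under both scalings, whereas 1118 of the 1133 higher and 1063 of the 1546 lower members did so overall. No member changed sides. At the margin itself, Osbpl7 was at 10.438, 10.599 and 11.073 RPKM in cDC1, against 8.708, 9.642 and 7.466 in cDC2 and 10.214, 10.431 and 6.996 in mcDC, just inside the rule. Luc7l, at 17.782, 17.685 and 18.199 RPKM in cDC1, against 16.218, 16.776 and 14.919 in cDC2 and 17.590, 16.442 and 17.692 in mcDC, was just outside it. Chmp3, a membrane scission protein, was just inside in the lower direction at 27.429, 25.230 and 26.577 RPKM in cDC1, against 32.246, 35.105 and 36.241 in cDC2 and 27.444, 30.285 and 34.688 in mcDC.

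The markers by which cDC1 are known were far apart from the other subsets (gene numbers of the files stand in parentheses). Cd8a (12525), the alpha chain of CD8, was at 306, 344 and 346 RPKM in cDC1, against 1.22, 1.27 and 1.41 in cDC2 and 3.72, 4.02 and 9.68 in mcDC. The gap between the nearest libraries, 4.84 on the log2(RPKM + 1) scale, was the widest of any member. Xcr1 (23832), the receptor for the chemokine XCL1 that activated CD8 T cells and NK cells release, was at 131, 174 and 173 RPKM in cDC1, with 1.95, 2.81 and 2.58 in cDC2 and 10.3, 17.3 and 19.4 in mcDC. Clec9a (232414), which binds actin filaments exposed by dead cells, was at 308, 353 and 315 RPKM in cDC1, against 20.2, 17.0 and 24.3 in cDC2 and 46.6, 74.4 and 61.7 in mcDC. For both, mcDC lay between the others without overlap. Cd207 (246278), langerin, a lectin for sugars on microbes, was at 26.2, 34.0 and 20.2 RPKM in cDC1, with 0.213, 0 and 0.0525 in cDC2 and 0.555, 0.822 and 0 in mcDC, where the values outside cDC1 rest on few reads. The label of cDC1 thus matched its markers: of 26 cDC1 identity genes that passed the filter, 19 were higher in cDC1 and 0 lower, with a median difference of 2.68 against -0.06 for all genes. Of 29 cDC2 identity genes, 20 were lower in cDC1 and 2 higher (Rbpj and Clec12a), with a median of -2.02. Sirpa, the SIRP alpha receptor for CD47, named here after its values were seen, was at 43.0, 11.5 and 13.4 RPKM in cDC1, against 277, 278 and 267 in cDC2 and 213, 145 and 151 in mcDC. Its mcDC libraries also lay below those of cDC2 but far above cDC1. Both lists were written with earlier results of these data known.

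Because Cd8a and Cd207 are markers of cDC1 whose windows hold such a match, the letters around their start sites are shown, as held in the RefSeq promoter table of build GRCm38.p6 (250 bases before to 50 after each start). Capitals mark matches, read on the strand of the gene, to GGAANNGAAA (an ETS-IRF composite) in Cd8a and to GAAATGANTCA (an AP-1 site joined to an IRF site) in Cd207, both searched on both strands. ETS-IRF and AP-1-IRF composites are the elements on which IRF8 is known to bind with PU.1 and with BATF3.
Cd8a, chr6:71373260-71373287, plus strand: tccaagtgtTTTCTCTTCCccaaatctc
Cd8a, chr6:71373282-71373309, plus strand: aatctcagtTTTCAATTCCtcccacttg
Cd207, chr6:83677845-83677873, minus strand: cctgcttttTGACTCATTTCccgtttctt
The capitals of the Cd8a windows begin 158 and 136 bases before the start, and those of Cd207 begin 7 bases before it. Among 27025 genes with a promoter in that table, 853 (3.16%) held the ETS-IRF letters and 38 (0.141%) the joined AP-1-IRF letters. Of the 2679 members 2115 had a promoter there, under the 80% needed, so a share over the members is void and is not given. For the markers Xcr1 and Clec9a no window with either kind of letters was found. Whether both had a promoter in that table to be searched is not shown, so absence of the letters is not claimed. Lower members had them too, Clec4a1 and Pilra the ETS-IRF letters, and Mndal, Slc12a5 and Mgat4a the joined AP-1-IRF letters. The letters are thus not particular to genes higher in cDC1. A match describes letters, not binding.

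Further genes with wide margins were of several kinds. Mab21l3 was at 34.7, 39.2 and 39.3 RPKM in cDC1, with 0.0611, 0.0975 and 0.0452 in cDC2 and 0.853, 0.555 and 1.15 in mcDC. The secreted Dkk3, a relative of Wnt inhibitors, was at 20.1, 29.2 and 26.7 RPKM in cDC1, against 0, 0 and 0.0718 in cDC2 and 0, 0.107 and 0.405 in mcDC. Both were close to absent outside cDC1. Gclc (14629), the catalytic subunit of the enzyme that limits glutathione synthesis, was at 133, 166 and 138 RPKM in cDC1, with 13.4, 11.9 and 10.997 in cDC2 and 15.6, 15.2 and 12.3 in mcDC, with cDC2 and mcDC overlapping. Arc, an immediate early gene of neurons that is also known from migrating dendritic cells, was at 21.4, 32.3 and 22.3 RPKM in cDC1, against 0.986, 0.489 and 0.578 in cDC2 and 1.98, 2.59 and 2.37 in mcDC. In all, 73 higher members were above 1 RPKM in no cDC2 or mcDC library.

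**Figure D1:**
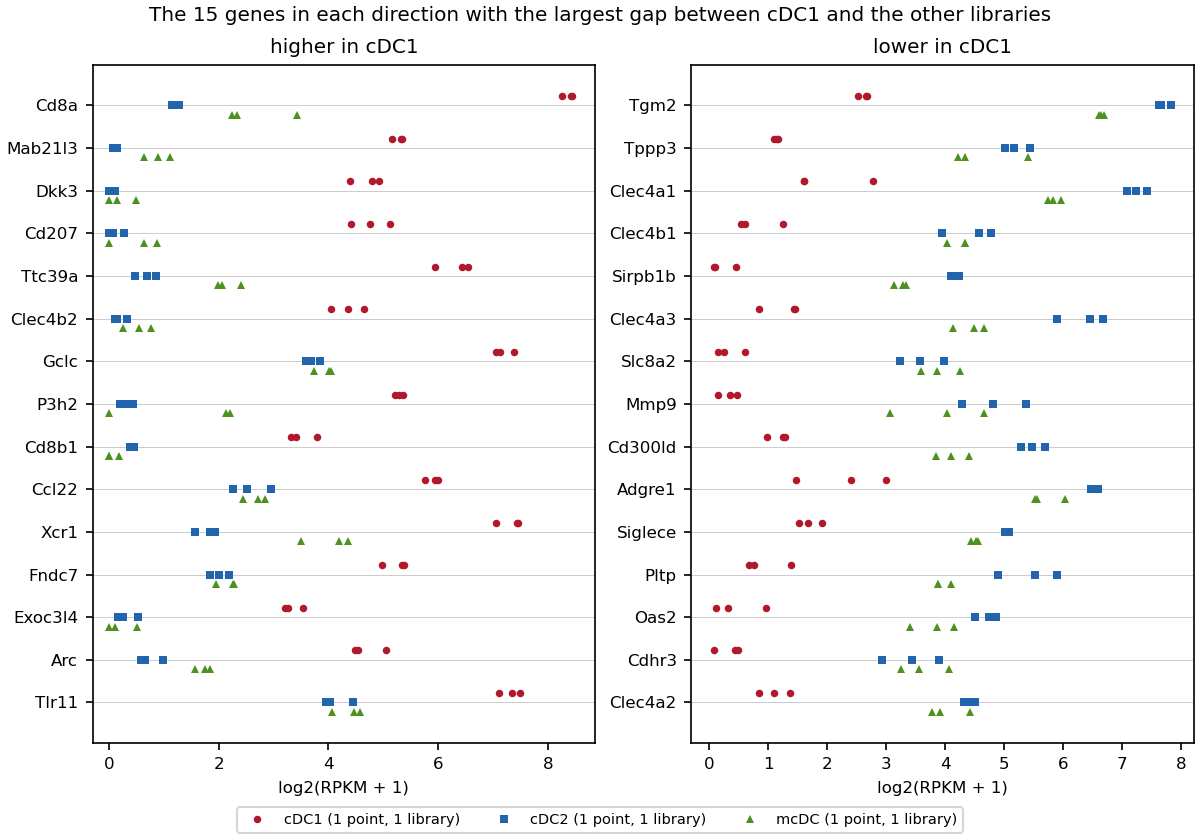
Each point is 1 library on the log2(RPKM + 1) scale, for the 15 genes in each direction with the widest gap among those of at least 5 RPKM in every library of the higher side. In the left panel cDC1 lies to the right of all other points, and mcDC lies between cDC1 and cDC2 for Cd8a, Mab21l3, Ttc39a, Xcr1 and Arc. In the right panel cDC1 lies to the left, and mcDC lies between for Tgm2, Clec4a1 and Clec4a3 but overlaps cDC2 for Clec4b1.

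Genes for the uptake of dead cells were found on both sides. Of 28 genes of apoptotic cell uptake, 3 were higher in cDC1 (Cd36, Clec9a and Havcr2) and 9 lower. Cd36 (12491), a scavenger receptor for oxidised lipid and dying cells, was at 70.1, 83.6 and 78.7 RPKM in cDC1, with 8.82, 10.3 and 10.9 in cDC2 and 8.87, 11.4 and 9.55 in mcDC, with the other subsets overlapping. Havcr2, the phosphatidylserine receptor TIM-3, was at 178, 206 and 189 RPKM in cDC1, against 92.5, 90.2 and 76.0 in cDC2 and 73.0, 79.8 and 61.2 in mcDC. As Havcr2 was a member, its 3 cDC1 libraries stood clear of the rest by the rule. On the lower side, Tgm2 (21817), a transglutaminase that acts in engulfment by macrophages, was at 5.37, 4.78 and 5.29 RPKM in cDC1, with 196, 226 and 201 in cDC2 and 103, 98.4 and 96.5 in mcDC. Itgb5, a chain of the integrin that bridges to apoptotic cells, was at 2.10, 1.38 and 2.14 RPKM in cDC1, against 9.53, 8.62 and 9.61 in cDC2 and 5.32, 8.67 and 7.78 in mcDC. Tgm2 had the widest margin of the lower members, and its mcDC libraries were near the middle on the RPKM scale, a log2 difference of -1.06 ± 0.10 (SE, limma adjusted p = 0.0014) from cDC2.

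Endosomal Toll-like receptors and their adaptors sense nucleic acids and protozoan protein in uptake vesicles. Of 13 endosomal Toll-like receptors and adaptors, 4 were higher in cDC1 and 4 lower. Tlr11 (239081), which senses profilin of protozoa, was at 138, 179.8 and 162 RPKM in cDC1, with 20.8, 15.3 and 14.5 in cDC2 and 15.7, 22.9 and 21.1 in mcDC. Its partner Tlr12 (384059) was at 34.9, 38.0 and 49.97 RPKM in cDC1, against 2.47, 2.02 and 3.06 in cDC2 and 12.0, 11.5 and 18.0 in mcDC. Tlr3 (142980), the receptor for double-stranded RNA, was at 89.8, 116 and 113 RPKM in cDC1, with 5.27, 7.94 and 7.65 in cDC2 and 18.4, 36.0 and 34.9 in mcDC. mcDC exceeded cDC2 for the last 2, by 2.06 ± 0.21 (limma adjusted p = 0.0018) for Tlr12 and 1.91 ± 0.25 (limma adjusted p = 0.0048) for Tlr3, while the difference for Tlr11 did not pass, 0.23 ± 0.18 (limma adjusted p = 0.59). The receptors of single-stranded RNA were on the lower side. Tlr7 (170743) was at 4.15, 1.65 and 1.08 RPKM in cDC1, against 35.5, 36.2 and 33.9 in cDC2 and 22.96, 18.3 and 8.73 in mcDC. Tlr8 (170744) was at 0.490, 0.0998 and 0.170 RPKM in cDC1, with 4.93, 6.33 and 7.44 in cDC2 and 2.10, 1.94 and 2.42 in mcDC. Unc93b1, the chaperone that all of these receptors need, was no member, at 374, 405 and 388 RPKM in cDC1, against 417, 361 and 355 in cDC2 and 376, 325 and 334 in mcDC.

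In MHC class I presentation, 21 genes passed the filter, and 8 were higher in cDC1 and 0 lower, with a median difference of 0.46. Under either scaling 12 were higher. Nlrc5 (434341), the transactivator of class I genes, was at 71.3, 95.5 and 68.6 RPKM in cDC1, with 27.5, 28.2 and 25.3 in cDC2 and 33.9, 28.7 and 24.6 in mcDC. Tap1, a chain of the peptide transporter of the endoplasmic reticulum, was at 233, 271 and 268 RPKM in cDC1, against 136, 128 and 134 in cDC2 and 138, 139.8 and 171 in mcDC. Tapbpl, a peptide editor, was at 45.5, 62.3 and 56.1 RPKM in cDC1, with 30.7, 27.3 and 24.5 in cDC2 and 30.8, 32.5 and 30.7 in mcDC. All 3 were higher members, and cDC2 and mcDC overlapped for Nlrc5. Cd1d1, which presents lipids to NKT cells, was at 79.8, 86.6 and 70.3 RPKM in cDC1, against 20.3, 16.8 and 13.04 in cDC2 and 24.9, 25.6 and 24.0 in mcDC. The class I heavy chain H2-K1 was no member and overlapped, at 919, 946 and 910.2 RPKM in cDC1, with 969, 839 and 876 in cDC2 and 778, 653 and 816 in mcDC.

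Genes of cross-presentation traffic were split, 8 higher and 7 lower of 27. Wdfy4 (545030), needed by cDC1 to cross-present cell-associated antigen, was at 363, 395 and 355 RPKM in cDC1, against 185, 169 and 129 in cDC2 and 229, 225 and 173 in mcDC. Rab43, a small GTPase with the same known role, was at 267, 312 and 284 RPKM in cDC1, with 139, 129 and 123 in cDC2 and 151, 159.7 and 130.4 in mcDC. Rab7b (226421), a GTPase between endosome and Golgi, was at 96.0, 118 and 122 RPKM in cDC1, against 3.84, 9.99 and 12.0 in cDC2 and 25.8, 55.0 and 61.7 in mcDC. It is one of the members at which mcDC was far above cDC2, by 2.36 ± 0.40 (limma adjusted p = 0.012). The lower members included Tfeb, a lysosomal transcription factor known to favour class II over cross-presentation, at 19.3, 15.7 and 14.7 RPKM in cDC1, with 54.5, 50.8 and 46.0 in cDC2 and 48.9, 39.3 and 38.0 in mcDC. Cyba, a subunit of the NADPH oxidase, was at 332, 339 and 366 RPKM in cDC1, against 499, 496 and 600.1 in cDC2 and 418, 443 and 638 in mcDC.

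Class II presentation and lysosomal proteolysis leaned to the other subsets. Of 21 class II genes, 9 were lower in cDC1 and 3 higher (6 lower after median-of-ratios scaling), although the list's median difference was 0.02. H2-Eb2, a class II beta chain, was at 26.0, 21.8 and 21.8 RPKM in cDC1, with 109, 91.9 and 72.5 in cDC2 and 104, 79.3 and 55.8 in mcDC. Ctss, the cathepsin that trims the invariant chain, was at 459.6, 378 and 408 RPKM in cDC1, against 794, 888 and 971 in cDC2 and 527, 551 and 587 in mcDC. Lgmn, an asparagine endopeptidase, was at 30.3, 29.9 and 33.9 RPKM in cDC1, with 48.7, 52.8 and 77.9 in cDC2 and 51.3, 52.1 and 70.4 in mcDC. Among 24 endosomal proteases and inhibitors 11 were lower and 4 higher (7 lower after median-of-ratios scaling). The higher ones included Cst3 (13010), the cathepsin inhibitor cystatin C, at 5516, 7714 and 9123 RPKM in cDC1, against 999, 1294 and 1645 in cDC2 and 1478, 3051 and 4608 in mcDC. Ppt1 (19063), a lysosomal thioesterase, was at 1118, 1407 and 1391 RPKM in cDC1, with 67.6, 91.6 and 102 in cDC2 and 176, 275 and 292 in mcDC. After quantile normalization Cst3 was no longer a member. Cd74, the invariant chain, overlapped between the groups, at 11741, 11875 and 12943 RPKM in cDC1, against 12585, 11169 and 12173 in cDC2 and 9849, 8496 and 11013 in mcDC.

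Dendritic cells also mature without infection, and among 28 genes known to go up in that state, 15 were higher in cDC1 and 0 lower, 53.6% against the share of 9.46% over all genes. Ccl22 (20299), a chemokine for CCR4-bearing T cells, was at 53.1, 60.5 and 62.8 RPKM in cDC1, with 6.72, 3.78 and 4.70 in cDC2 and 4.42, 6.15 and 5.58 in mcDC. Il12b (16160), the shared p40 subunit of IL-12 and IL-23, was at 39.7, 48.3 and 54.8 RPKM in cDC1, against 2.52, 1.32 and 0.866 in cDC2 and 5.91, 6.24 and 1.40 in mcDC. Serpinb6b (20708), an inhibitor of granzyme A, was at 118, 164 and 169.7 RPKM in cDC1, with 13.4, 8.12 and 7.13 in cDC2 and 17.6, 18.1 and 26.0 in mcDC. These 3 were low in both other subsets. Apol7c (108956), an apolipoprotein L that dendritic cells induce, was at 337, 411 and 567 RPKM in cDC1, against 82.3, 40.7 and 47.6 in cDC2 and 86.2, 51.0 and 46.9 in mcDC. Cd86 (12524), a ligand of CD28, was at 133, 149 and 134 RPKM in cDC1, with 32.0, 35.9 and 32.3 in cDC2 and 45.9, 52.0 and 61.8 in mcDC. Cd83, which keeps class II on the surface, was at 181, 196 and 187 RPKM in cDC1, against 108, 73.9 and 69.6 in cDC2 and 149, 103 and 124 in mcDC. Libraries of cDC2 and mcDC overlapped for Ccl22 and Apol7c, while mcDC exceeded cDC2 for Cd86, by 0.65 ± 0.13 (limma adjusted p = 0.024), and for Serpinb6b, by 1.05 ± 0.24 (limma adjusted p = 0.048).

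Among other signals to T cells, members were balanced between the sides. Of 18 chemokine ligands 4 were higher and 3 lower, and of 28 costimulatory and inhibitory molecules 7 and 7. Cxcl9 (17329), a ligand of CXCR3, was at 81.6, 105 and 125 RPKM in cDC1, with 7.33, 6.30 and 7.22 in cDC2 and 5.06, 9.34 and 18.2 in mcDC. Ccl19, a ligand of CCR7, was at 5.61, 4.79 and 4.01 RPKM in cDC1, against 0.302, 0.301 and 0.391 in cDC2 and 0.590, 0.374 and 0 in mcDC. The lower ones included 2 inflammatory chemokines, for which cDC2 and mcDC overlapped. Ccl3 (20302) was at 19.2, 4.59 and 10.2 RPKM in cDC1, with 100.02, 58.0 and 62.7 in cDC2 and 124, 60.0 and 65.1 in mcDC. Ccl4 was at 17.2, 8.52 and 9.69 RPKM in cDC1, against 51.2, 28.9 and 34.3 in cDC2 and 60.1, 41.6 and 62.4 in mcDC. Among the costimulatory and inhibitory molecules both directions occurred. Pvr, a ligand of DNAM-1 and TIGIT, was at 20.9, 23.8 and 17.4 RPKM in cDC1, with 3.69, 4.02 and 4.48 in cDC2 and 4.37, 3.05 and 4.51 in mcDC. Btla, an inhibitory receptor for HVEM, was at 192, 239 and 228 RPKM in cDC1, against 40.5, 51.2 and 42.8 in cDC2 and 61.5, 99.2 and 114 in mcDC. In contrast the SLAM family receptor Ly9 was lower in cDC1, at 35.8, 30.8 and 32.0 RPKM in cDC1, with 63.0, 58.7 and 54.9 in cDC2 and 81.1, 67.6 and 74.6 in mcDC.

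Among 22 cytokines 3 were higher in cDC1 and 7 lower. Il15 (16168), which sustains memory CD8 T cells and NK cells, was at 23.4, 23.9 and 19.4 RPKM in cDC1, against 6.57, 4.30 and 3.83 in cDC2 and 5.25, 4.34 and 5.19 in mcDC. Il15ra, the chain that presents it, was at 26.5, 36.4 and 26.3 RPKM in cDC1, with 6.67, 6.43 and 5.48 in cDC2 and 6.24, 5.31 and 5.03 in mcDC. Ligand and receptor were both higher members, and cDC2 and mcDC overlapped for both. Ltb, a lymphotoxin chain, was at 80.3, 30.4 and 39.5 RPKM in cDC1, against 190.4, 167 and 140.5 in cDC2 and 189.6, 153 and 154 in mcDC. Flt3l, the growth factor of dendritic cells, was at 8.52, 6.03 and 8.65 RPKM in cDC1, with 18.5, 19.5 and 18.5 in cDC2 and 15.7, 16.9 and 36.1 in mcDC. Il1rn, the IL-1 receptor antagonist, was at 0.0331, 0.132 and 0.226 RPKM in cDC1, against 7.05, 9.42 and 10.02 in cDC2 and 0.841, 1.11 and 1.13 in mcDC. Il1rn was highest in cDC2, and from cDC2 to mcDC it fell by 2.27 ± 0.19 (limma adjusted p = 0.00077) on the log2 scale. Flt3, the receptor for Flt3l, was higher in cDC1, at 286, 259 and 250.002 RPKM in cDC1, with 163, 134 and 140.5 in cDC2 and 189, 189.7 and 144 in mcDC.

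Receptors that position cells differed as well. Ccr9, which guides cells to CCL25, was at 11.2, 9.33 and 9.37 RPKM in cDC1, against 1.36, 1.24 and 0.951 in cDC2 and 2.38, 2.70 and 1.55 in mcDC. P2ry14 (140795), a receptor for UDP-glucose, was at 30.3, 35.5 and 39.6 RPKM in cDC1, with 0.900, 1.68 and 1.52 in cDC2 and 5.22, 8.54 and 11.3 in mcDC, and mcDC exceeded cDC2 by 1.94 ± 0.25 (limma adjusted p = 0.0046). Other receptors were lower in cDC1. Ccr6 (12458), the receptor of CCL20, was at 0.251, 0.668 and 0.238 RPKM in cDC1, against 13.4, 11.1 and 9.07 in cDC2 and 19.8, 14.98 and 5.28 in mcDC. Ffar2, a receptor for short-chain fatty acids, was at 13.9, 9.25 and 9.94 RPKM in cDC1, with 74.2, 63.7 and 61.7 in cDC2 and 56.9, 45.6 and 54.1 in mcDC. In both, cDC2 and mcDC were well above cDC1. Ltb4r1, the high-affinity leukotriene B4 receptor, was at 0.391, 0.847 and 0.519 RPKM in cDC1, against 18.8, 14.6 and 25.4 in cDC2 and 5.41, 3.61 and 3.07 in mcDC. It was highest in cDC2, and from there to mcDC it fell by 2.03 ± 0.25 (limma adjusted p = 0.0041) on the log2 scale. Among integrin chains 5 were higher and 5 lower of 19. Itgae (16407), the CD103 chain that binds E-cadherin, was at 17.1, 42.0 and 64.3 RPKM in cDC1, with 0.279, 0.371 and 0.429 in cDC2 and 1.04, 1.57 and 4.98 in mcDC, a range of over 3-fold within cDC1. Itgam (16409), the CD11b chain, was at 3.99, 2.61 and 3.10 RPKM in cDC1, against 80.9, 105 and 117 in cDC2 and 15.04, 16.4 and 10.04 in mcDC.

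Transcription factors of dendritic cells were lower in cDC1 more often than higher, 13 against 5 of 44. Mycl (16918), a MYC relative known from cDC1, was at 92.0, 100.8 and 94.2 RPKM in cDC1, with 29.9, 24.1 and 20.9 in cDC2 and 40.5, 41.9 and 34.2 in mcDC. Rbpj, through which Notch receptors act, was at 65.8, 68.0 and 65.0 RPKM in cDC1, against 41.9, 40.2 and 38.9 in cDC2 and 42.7, 47.9 and 43.9 in mcDC. The lower members included C/EBP factors of myeloid cells. Cebpb was at 3.89, 2.93 and 5.23 RPKM in cDC1, with 52.0, 43.3 and 56.3 in cDC2 and 14.2, 9.94 and 20.7 in mcDC. Cebpa was at 5.78, 3.78 and 3.62 RPKM in cDC1, against 15.8, 14.6 and 15.5 in cDC2 and 14.8, 13.7 and 15.2 in mcDC. Nr1h3, the liver X receptor alpha, was at 0.560, 1.76 and 1.57 RPKM in cDC1, with 5.42, 8.15 and 8.05 in cDC2 and 10.4, 10.3 and 19.5 in mcDC. Between cDC2 and mcDC, Cebpa overlapped, Cebpb fell by 1.74 ± 0.26 (limma adjusted p = 0.0074) on the log2 scale, and the difference for Nr1h3 did not pass (0.77 ± 0.30, limma adjusted p = 0.23). Irf8, the factor that drives cDC1 development, is named here after its values were seen, at 620.4, 785 and 777 RPKM in cDC1, against 50.9, 83.2 and 94.7 in cDC2 and 206, 404 and 493 in mcDC.

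Within the Notch pathway 6 genes were higher and 4 lower of 23. Notch4 (18132), a receptor best known from endothelium, was at 33.1, 45.3 and 35.4 RPKM in cDC1, with 2.14, 2.496 and 2.29 in cDC2 and 7.43, 6.15 and 6.50 in mcDC. Jag2, a ligand, was at 6.23, 9.55 and 10.6 RPKM in cDC1, against 0.349, 0.235 and 0.436 in cDC2 and 1.29, 1.82 and 1.77 in mcDC. Among the 4 on the lower side were a target and a modifier of Notch signalling. Dtx1 (14357), a Deltex ubiquitin ligase that is a target of Notch signalling, was at 9.87, 3.003 and 4.27 RPKM in cDC1, with 80.7, 68.2 and 47.4 in cDC2 and 109.7, 77.4 and 75.8 in mcDC. Mfng, a glycosyltransferase that tunes Notch receptors, was at 25.1, 23.3 and 20.9 RPKM in cDC1, against 38.9, 32.4 and 35.8 in cDC2 and 35.8, 35.9 and 37.1 in mcDC. cDC2 and mcDC overlapped for Dtx1 and Mfng. mcDC exceeded cDC2 for Notch4, by 1.22 ± 0.16 (limma adjusted p = 0.0046), and for Jag2, by 0.97 ± 0.22 (limma adjusted p = 0.044).

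**Figure D2:**
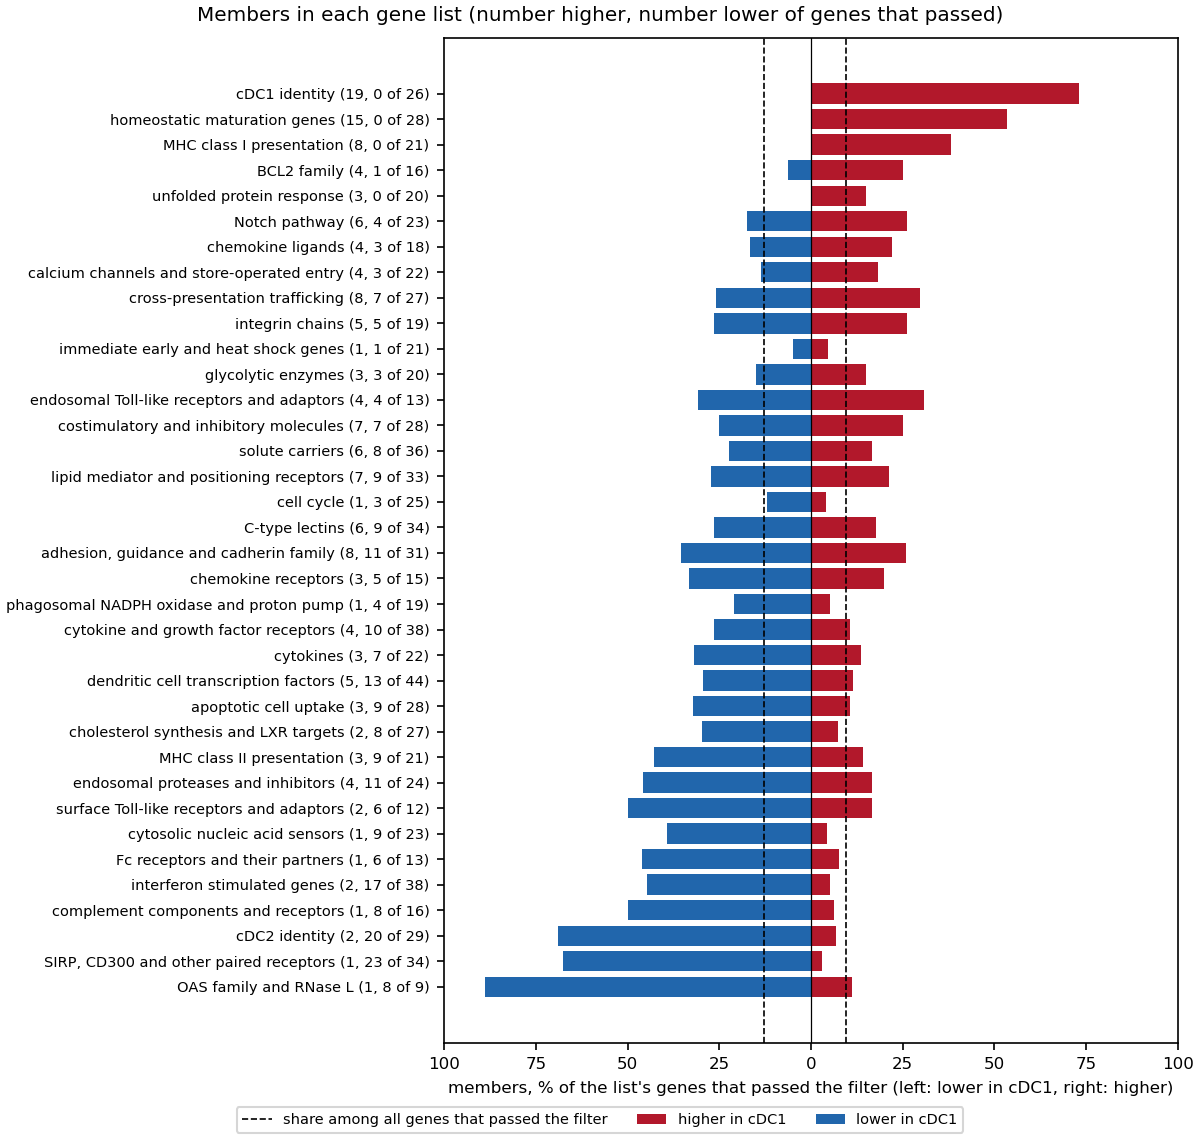
Bars give the members of a gene list as a percent of its genes that passed the filter, higher in cDC1 to the right and lower to the left, and dashed lines the share among all genes. The lists at the top hold 19 of 26 and 15 of 28 higher members with 0 lower, and the list at the bottom, the OAS family with RNase L, holds 8 of 9 lower members.

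Antiviral effector genes were mostly on the lower side. OAS enzymes sense double-stranded RNA and make 2-5A, which activates RNase L. Of 9 genes in that list 8 lay below the other subsets, and only Oasl1 above, at 7.48, 10.8 and 12.5 RPKM in cDC1, with 3.02, 3.39 and 4.502 in cDC2 and 0.400, 2.45 and 1.097 in mcDC. Oas2 (246728) was at 0.941, 0.252 and 0.0782 RPKM in cDC1, against 21.8, 25.8 and 28.1 in cDC2 and 13.6, 9.62 and 16.7 in mcDC. Oas1a (246730) was at 1.54, 0.817 and 1.15 RPKM in cDC1, with 12.3, 20.8 and 23.7 in cDC2 and 9.19, 7.99 and 10.9 in mcDC. The lower count of this list was 6 under quantile normalization and 7 under median-of-ratios scaling. Interferon stimulated genes numbered 38, 17 lower and 2 higher, with a median difference of -0.54. Ifitm3 (66141), which blocks the fusion of viruses with endosomes, was at 83.5, 53.5 and 88.3 RPKM in cDC1, against 490.3, 616 and 882 in cDC2 and 229.7, 208 and 432 in mcDC. Ifitm1 was at 2.27, 3.32 and 4.66 RPKM in cDC1, with 25.002, 38.2 and 64.0 in cDC2 and 36.9, 39.2 and 98.7 in mcDC. Rtp4 was at 1.27, 0.404 and 1.64 RPKM in cDC1, against 20.6, 24.7 and 31.1 in cDC2 and 9.18, 8.11 and 8.02 in mcDC. All 3 were lower members, so by the rule no cDC1 library reached any other. The exceptions in the list were higher in cDC1. Mx1, a dynamin-like inhibitor of influenza virus, was at 50.1, 59.5 and 46.4 RPKM in cDC1, with 17.9, 21.8 and 23.9 in cDC2 and 21.98, 25.2 and 32.5 in mcDC. Trim30a was at 66.6, 71.0 and 69.6 RPKM in cDC1, against 39.7, 49.5 and 52.5 in cDC2 and 43.1, 59.0 and 64.2 in mcDC. Trim30a has close copies, so its value is uncertain.

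Cytosolic sensors followed the same direction, 9 lower and 1 higher of 23. Ddx58 (230073), the RNA sensor RIG-I, was at 2.002, 1.71 and 1.73 RPKM in cDC1, with 18.9, 19.0 and 16.8 in cDC2 and 12.9, 12.2 and 13.2 in mcDC. Tmem173, the adaptor STING, was at 39.4, 22.1 and 24.8 RPKM in cDC1, against 66.1, 60.9 and 74.7 in cDC2 and 71.2, 77.0 and 79.2 in mcDC. Nod1, a sensor of bacterial cell wall, was at 20.6, 16.8 and 14.9 RPKM in cDC1, with 65.5, 66.7 and 56.7 in cDC2 and 68.1, 49.4 and 37.1 in mcDC. For Tmem173 and Nod1, cDC2 and mcDC overlapped. The member on the higher side was Nlrp1b, at 17.4, 20.6 and 17.7 RPKM in cDC1, against 14.5, 14.9 and 11.7 in cDC2 and 11.9, 6.96 and 5.25 in mcDC. Surface Toll-like receptors and adaptors numbered 12, of which 6 were lower (4 under either scaling) and 2 higher. Tlr1 was at 19.3, 11.6 and 11.04 RPKM in cDC1, with 73.3, 68.6 and 59.7 in cDC2 and 66.3, 52.2 and 45.8 in mcDC. Tlr4, the endotoxin receptor, was at 1.38, 1.41 and 1.25 RPKM in cDC1, against 2.41, 2.93 and 2.77 in cDC2 and 2.37, 3.005 and 3.59 in mcDC. The difference between mcDC and cDC2 was -0.48 ± 0.13 (limma adjusted p = 0.087) for Ddx58 and -0.30 ± 0.21 (limma adjusted p = 0.53) for Tlr1, and neither passed.

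Promoter letters from the same RefSeq table (GRCm38.p6) are shown for members on opposite sides, Oas1a, Ifitm3 and Ddx58 being lower in cDC1 and Tlr11 and Ccl19 higher. Capitals mark a match to the interferon response element core, GAAANNGAAA on either strand. The Oas1a window holds another match that overlaps the marked one and runs on into the small letters.
Oas1a, chr5:120907527-120907554, minus strand: ccttctcggGAAATGGAAActgaaaatc
Ifitm3, chr7:141010724-141010751, minus strand: aaaattcagGAAAAGGAAActtctgaga
Ddx58, chr4:40239805-40239832, minus strand: ctgaggcagTTTCGATTTCctatggcca
Tlr11, chr14:50357783-50357810, plus strand: ggaagtcatGAAACTGAAAgaaaaagag
Ccl19, chr4:42756555-42756582, minus strand: tttgggacaGAAAGTGAAAgctcaaggc
These letters were found in 1079 of the 27025 genes with a promoter (3.99%). Genes with them stood on both sides of the comparison.

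Members of both directions often lay beside others of their own direction in the genome. Of 1544 lower members that could be placed in gene order, 526 (34.1%) had a lower member as a neighbour among the genes that passed the filter, where 23.5% of all 11961 genes placed had such a neighbour. Of the 1133 higher members, 374 (33.0%) had a higher one, where 17.7% of genes did. The longest run held 7 genes, Dtx1, Oas2, Oas3, Oas1c, Oas1b, Oas1g and Oas1a on chromosome 5. Oas3 belonged to it by a very narrow margin, at 2.536 RPKM in cDC1 replicate 3 and 2.552 in mcDC replicate 3. A run of 5 held Clec4a1, Clec4a3, Clec4a4, Clec4b1 and Clec4a2 on chromosome 6. On the higher side, Cd8b1 and Cd8a closed a run of 4 with Smyd1 and Krcc1, and Nlrc5 stood in a run of 6. Members of the Oas1, Clec4a, Sirpb1, Ifit and Pilr families are close copies whose reads could have been shared out between them, so single values are uncertain.

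**Figure D3:**
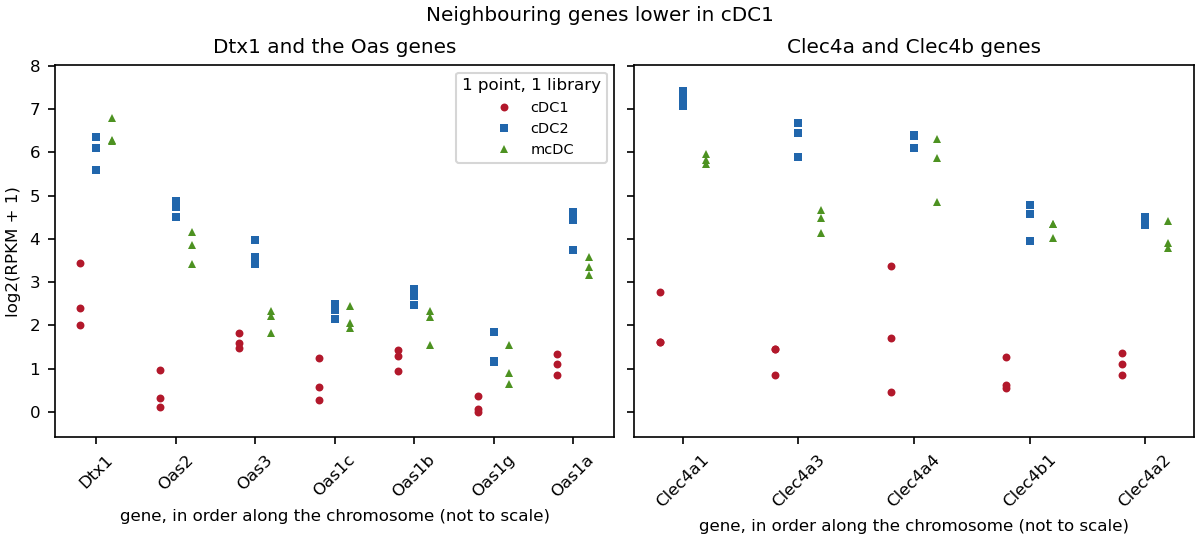
Points are single libraries on the log2(RPKM + 1) scale, with genes in their order along the chromosome. In every gene of both runs the 3 cDC1 libraries lie below the other 6, as the rule requires. mcDC is above the cDC2 mean for Dtx1 and below it for Clec4a3 and Oas3.

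The neighbours of such a run did not share one pattern in mcDC. Clec4a3 was at 1.72, 0.79995 and 1.75 RPKM in cDC1, with 58.8, 86.9 and 102 in cDC2 and 16.5, 24.4 and 21.5 in mcDC. From cDC2 to mcDC it fell by 1.92 ± 0.25 (limma adjusted p = 0.0046) on the log2 scale. Clec4b1 (69810) was at 1.39, 0.463 and 0.526 RPKM in cDC1, against 14.4, 22.8 and 26.3 in cDC2 and 15.3, 19.2 and 19.3 in mcDC. The 2 subsets overlapped (-0.19 ± 0.26, limma adjusted p = 0.75). Clec4a1 (269799) was at 5.83, 2.04 and 2.05 RPKM in cDC1, with 134, 149.7 and 171 in cDC2 and 61.1, 52.3 and 55.7 in mcDC, with cDC1 replicate 1 nearly 3-fold above the other cDC1 libraries. These genes encode C-type lectins of the DCIR and DCAR group. Another lectin of the Clec4 group, Clec4b2 (381809), was on the higher side, at 23.9, 19.5 and 15.5 RPKM in cDC1, against 0.104, 0.249 and 0.0770 in cDC2 and 0.465, 0.688 and 0.186 in mcDC. So the lectin list as a whole was divided, 6 higher and 9 lower of 34.

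Of 34 SIRP, CD300 and other paired receptors, 23 were lower in cDC1 and 1 higher. They carry inhibitory motifs or pair with activating adaptors and bind sialic acid, CD47 or lipids. Sirpb1b (668101), a SIRP beta, was at 0.364, 0.0606 and 0.0689 RPKM in cDC1, with 17.9, 16.1 and 16.1 in cDC2 and 9.09, 8.77 and 7.79 in mcDC. Cd300ld (217305) was at 1.38, 0.968 and 1.44 RPKM in cDC1, against 38.0, 43.3 and 50.6 in cDC2 and 16.2, 13.3 and 20.2 in mcDC. Siglece (83382), an inhibitory sialic acid receptor, was at 2.21, 1.86 and 2.79 RPKM in cDC1, with 32.3, 32.9 and 31.4 in cDC2 and 20.7, 21.96 and 22.6 in mcDC. In all 3, mcDC lay between cDC1 and cDC2. Cd300lf, which binds phosphatidylserine and ceramide, was at 10.9, 3.33 and 3.43 RPKM in cDC1, against 68.1, 62.9 and 50.005 in cDC2 and 68.3, 43.6 and 49.8 in mcDC. The exception was Treml4, which binds dead cells, at 95.7, 99.3 and 111 RPKM in cDC1, with 54.0, 62.1 and 69.1 in cDC2 and 24.7, 27.7 and 46.2 in mcDC, lowest in mcDC. The lower count was 22 under each scaling.

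Of 13 Fc receptors and partners 6 were lower and 1 higher, and of 16 complement genes 8 and 1. Fcer1g (14127), the signalling chain shared by activating Fc receptors, was at 113, 47.8 and 54.1 RPKM in cDC1, against 465, 464 and 623 in cDC2 and 288, 319 and 336 in mcDC. Fcgr3, a low-affinity IgG receptor, was at 2.68, 2.61 and 3.43 RPKM in cDC1, with 18.2, 31.4 and 36.8 in cDC2 and 7.72, 14.1 and 13.1 in mcDC, and from cDC2 to mcDC it fell by 1.22 ± 0.28 (limma adjusted p = 0.048) on the log2 scale. Fcrla, an intracellular Fc receptor-like protein of B cells, was on the higher side at 24.6, 25.9 and 27.9 RPKM in cDC1, against 0.802, 0.598 and 1.54 in cDC2 and 2.51, 6.19 and 2.87 in mcDC. The complement members were mostly lower. Cfp (18636), properdin, a stabiliser of the alternative pathway, was at 124, 75.0 and 76.8 RPKM in cDC1, with 200.2, 215 and 196 in cDC2 and 228, 239 and 243 in mcDC. C3 was at 0.353, 0.512 and 0.923 RPKM in cDC1, against 8.25, 13.4 and 15.2 in cDC2 and 2.27, 1.99 and 2.04 in mcDC. The difference between mcDC and cDC2 did not pass for Cfp (0.22 ± 0.18, limma adjusted p = 0.59), while C3 fell by 2.06 ± 0.24 (limma adjusted p = 0.0035) on the log2 scale.

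Metabolism and growth gave further members. Of 27 genes of cholesterol synthesis and LXR targets, 8 were lower and 2 higher. Pltp (18830), a phospholipid transfer protein, was at 1.61, 0.603 and 0.685 RPKM in cDC1, with 28.7, 44.9 and 58.5 in cDC2 and 13.6, 16.1 and 13.7 in mcDC. Among 25 cell cycle genes 3 were lower (12%) and 1 higher (4%), where all genes gave 12.9% and 9.46%. Nothing is read from these counts, which were 2 lower and 2 higher under either scaling. The lower ones as deposited were the D cyclins Ccnd1, Ccnd2 and Ccnd3, and the higher one was Cdkn1a, the inhibitor p21. Ccnd1 was at 59.9, 43.1 and 46.3 RPKM in cDC1, against 183, 163 and 147 in cDC2 and 196, 160.5 and 95.9 in mcDC. Cdkn1a was at 24.8, 26.5 and 28.9 RPKM in cDC1, with 11.2, 8.09 and 10.3 in cDC2 and 8.59, 9.35 and 9.35 in mcDC. Ccnd3 was at 36.4, 42.9 and 42.8 RPKM in cDC1, against 43.3, 76.3 and 88.2 in cDC2 and 43.9, 70.2 and 78.2 in mcDC and was no member under either scaling.

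Calcium and survival genes also divided. Trpm2 (28240), a channel opened by ADP-ribose in oxidative stress, was at 99.6, 136 and 132 RPKM in cDC1, with 28.1, 20.9 and 18.9 in cDC2 and 26.0, 21.2 and 20.0 in mcDC. Cacnb3, a calcium channel beta subunit, was at 192, 267 and 193 RPKM in cDC1, against 50.2, 23.3 and 19.8 in cDC2 and 86.6, 64.2 and 57.6 in mcDC. Ryr3 (20192), a calcium release channel, was lower in cDC1, at 0.676, 0.0705 and 0.0668 RPKM in cDC1, with 7.62, 8.36 and 3.99 in cDC2 and 28.5, 27.4 and 16.5 in mcDC, with mcDC highest. Of 16 BCL2 family genes 4 were higher and 1 lower. Bcl2l11, the death promoter BIM, was at 12.3, 13.7 and 12.5 RPKM in cDC1, against 5.11, 4.94 and 4.45 in cDC2 and 5.39, 5.27 and 5.51 in mcDC. Bcl2, which opposes it, was at 2.83, 2.14 and 2.86 RPKM in cDC1, with 4.11, 4.26 and 5.66 in cDC2 and 3.56, 4.81 and 4.72 in mcDC. The unfolded protein response list held 20 genes, 3 higher and 0 lower, namely Hsp90b1, Herpud1 and Sec61a1.

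Within the members the mean of mcDC lay nearer to cDC2 than to cDC1 at 1035 of 1133 higher (91.4%) and 1446 of 1546 lower members (93.5%), 92.6% in all on the log2 scale. Over all 11971 genes tested the share was 58.5%. The rule keeps mcDC from reaching cDC1 and so favours a place near cDC2, and nothing is read from the higher share among members. The median place of mcDC on the way from cDC2, at 0, to cDC1, at 1, was 0.15 for higher and 0.059 for lower members. The mcDC mean was on the far side of the cDC2 mean from cDC1 at 32.1% of higher and 44.6% of lower members.

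By limma on log2(RPKM + 1), few members passed between mcDC and cDC2. As the rule used the same libraries, the counts are descriptions. Of the 1133 higher members 72 were higher in mcDC than in cDC2, 6.35% where all genes tested gave 2.06%, and 4 were lower, 0.353% where all genes gave 1.6%. Of the 1546 lower members 94 were lower in mcDC, 6.08%, and 22 higher, 1.42%. Most of these calls lay in the direction of cDC1. The 95% interval of the difference lay within 2-fold at 859 higher members (75.8%), 1173 lower members (75.9%) and 8793 of all genes tested (73.5%). For the 73 higher members above 1 RPKM in no cDC2 or mcDC library, the difference itself cannot exceed 2-fold on this scale. Their small differences are thus set in advance. The calls rest on few libraries: without cDC2 replicate 2 there were 30 and 39 toward cDC1 in place of 72 and 94, and without mcDC replicate 1 there were 112 and 117. Without cDC2 replicate 3 the counts were 40 and 40, and without mcDC replicate 2 they were 47 and 57.

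**Figure D4:**
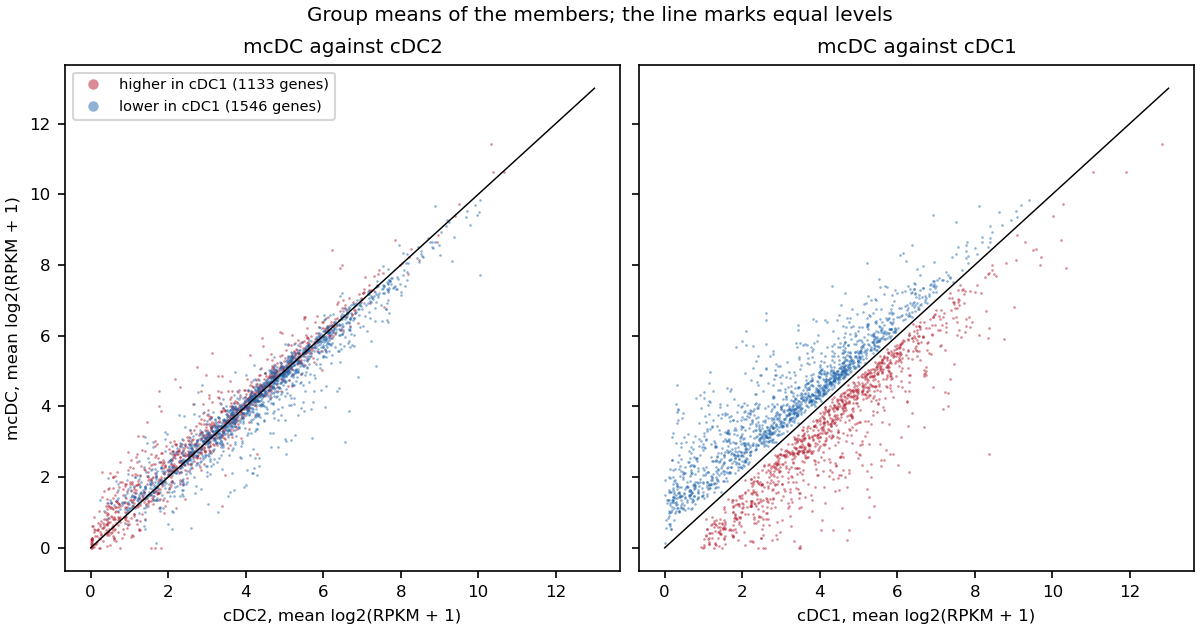
Each point is the mean of 1 member on the log2(RPKM + 1) scale, with mcDC on the vertical axis against cDC2 (left) and cDC1 (right), and the line marks equality. On the left the 1133 higher and 1546 lower members both follow the line. On the right they part to opposite sides of it, as the rule requires.

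Some members were shared to within narrow limits. Among those of at least 5 RPKM on their higher side, one of the narrowest intervals was that of Sec24c, a coat protein of vesicles leaving the endoplasmic reticulum, at 48.2, 48.4 and 45.7 RPKM in cDC1, against 39.7, 40.3 and 39.3 in cDC2 and 38.8, 42.4 and 38.1 in mcDC, with an interval of -0.21 to 0.21 for mcDC minus cDC2. Plekhb2, at 33.2, 36.4 and 32.1 RPKM in cDC1, with 17.1, 18.0 and 17.6 in cDC2 and 18.7, 16.5 and 17.2 in mcDC, had an interval of -0.25 to 0.23. On the lower side, Rela, the p65 subunit of NF-kappa B, was at 45.9, 45.8 and 43.7 RPKM in cDC1, against 49.7, 54.0 and 48.2 in cDC2 and 53.9, 47.1 and 51.0 in mcDC, with an interval of -0.23 to 0.23. Rela was no member under either scaling. Wider intervals around 0 were those of Cd36 (-0.32 to 0.29), Trpm2 (-0.41 to 0.41), Ltb (-0.67 to 0.68) and Ccrl2 (-0.54 to 0.53). Ccrl2, a chemerin-binding receptor, was at 5.81, 4.52 and 3.64 RPKM in cDC1, with 38.0, 24.5 and 24.6 in cDC2 and 37.2, 22.5 and 27.1 in mcDC.

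A smaller group was graded, with mcDC between the others. Gcsam (14525), a signalling adaptor of germinal centre B cells, was at 66.9, 80.3 and 87.3 RPKM in cDC1, against 1.03, 3.22 and 3.49 in cDC2 and 8.77, 26.3 and 37.2 in mcDC, the largest rise from cDC2 to mcDC among higher members, a log2 difference of 2.68 ± 0.47 (SE, limma adjusted p = 0.014). Pdia5, a protein disulfide isomerase, was at 95.3, 113 and 111 RPKM in cDC1, with 4.63, 6.52 and 6.31 in cDC2 and 18.2, 30.9 and 66.2 in mcDC (2.35 ± 0.37, limma adjusted p = 0.0086). Dbn1, the actin-binding drebrin, was at 51.7, 76.3 and 83.5 RPKM in cDC1, against 2.55, 4.27 and 5.36 in cDC2 and 16.3, 22.01 and 31.8 in mcDC (2.26 ± 0.29, limma adjusted p = 0.0046). Xcr1 rose by 2.24 ± 0.23 (limma adjusted p = 0.0018), Clec9a by 1.51 ± 0.18 (limma adjusted p = 0.0038) and Cd8a by 1.46 ± 0.27 (limma adjusted p = 0.018). In all 6 genes every mcDC library lay above every cDC2 library and below every cDC1 library. Cd207 was not called (0.38 ± 0.27, limma adjusted p = 0.52). Irf8 rose by 2.21 ± 0.33 (limma adjusted p = 0.0072) and stood between the others in every library. Over the alternatives run, Cd8a had adjusted p from 0.0021 to 0.098, Gcsam from 0.0014 to 0.064 and Rab7b from 0.00075 to 0.054, so their calls did not hold throughout.

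The place of mcDC differed from gene to gene. On the RPKM scale, with cDC2 at 0% and cDC1 at 100%, mcDC stood at -0.143% for Cd36, 1.36% for Cd8a, 1.39% for Cd207, 1.7% for Gclc, 8.42% for Xcr1, 8.88% for Cadm1, 13.2% for Clec9a, 23% for Tlr3, 37.6% for Rab7b and 44.8% for Irf8. Over the 15 higher members with the widest margins the place ran from -2.94% for Cd8b1 to 8.42% for Xcr1, with a median of 1.56%. Over the 15 lower members chosen in the same way it ran from -26.0% for Slc8a2 to 76.1% for Clec4a3, with a median of 45.7%. A wide gap to the nearest library holds mcDC away from cDC1 in both sets, so these places are partly set by the choice.

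Some lower members were far below cDC2 in mcDC as well. Ace (11421), angiotensin-converting enzyme, was at 1.04, 0.465 and 0.559 RPKM in cDC1, with 81.6, 96.1 and 104 in cDC2 and 7.17, 6.82 and 6.93 in mcDC, the largest fall from cDC2 to mcDC among lower members, a log2 difference of -3.57 ± 0.16 (SE, limma adjusted p = 1.9e-05). Itgam fell by 2.79 ± 0.21 (limma adjusted p = 0.00042) in log2 terms. Cyp4f18, a leukotriene B4 hydroxylase, was at 4.32, 1.92 and 3.57 RPKM in cDC1, against 42.2, 47.0 and 66.8 in cDC2 and 9.34, 6.65 and 7.19 in mcDC (-2.59 ± 0.25, limma adjusted p = 0.0015). Ear2, a ribonuclease of eosinophil type, was at 2.16, 3.29 and 2.02 RPKM in cDC1, with 29.4, 31.5 and 35.8 in cDC2 and 4.75, 8.78 and 3.53 in mcDC (-2.39 ± 0.27, limma adjusted p = 0.0032). Lyz2 (17105), lysozyme M, was at 88.2, 84.0 and 116 RPKM in cDC1, against 698, 1176 and 1462 in cDC2 and 201, 214 and 219.5 in mcDC (-2.33 ± 0.25, limma adjusted p = 0.0024). For these 5 the mcDC mean lay nearer to cDC1 than to cDC2, with every mcDC library above every cDC1 library. Ear2 was no member after median-of-ratios scaling.

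A few lower members were highest in mcDC. Col17a1, a transmembrane collagen, was at 0.197, 0.131 and 0.0745 RPKM in cDC1, with 2.32, 1.47 and 1.23 in cDC2 and 11.3, 9.31 and 4.42 in mcDC (1.74 ± 0.30, limma adjusted p = 0.014), and Ryr3 rose from cDC2 to mcDC by 1.73 ± 0.31 (limma adjusted p = 0.016). Mrc2 (17534), a collagen receptor, was at 0.376, 0.453 and 0.196 RPKM in cDC1, against 2.38, 1.60 and 1.40 in cDC2 and 9.04, 5.79 and 6.06 in mcDC (1.504 ± 0.22, limma adjusted p = 0.0074). Gfra2, the receptor of neurturin, was at 1.80, 0.962 and 2.16 RPKM in cDC1, with 4.49, 4.53 and 2.88 in cDC2 and 12.7, 13.2 and 12.0 in mcDC (1.48 ± 0.22, limma adjusted p = 0.0076). Every mcDC library exceeded every cDC2 library in these 4 genes. Of the higher members, 4 were lower in mcDC than in cDC2: Treml4 (-0.93 ± 0.21, limma adjusted p = 0.044), Cnr2, the cannabinoid receptor of leukocytes, at 26.0, 27.1 and 24.9 RPKM in cDC1, against 17.4, 15.6 and 15.5 in cDC2 and 11.9, 8.82 and 7.48 in mcDC (-0.74 ± 0.16, limma adjusted p = 0.036), and the short entries Mir7030 and Mir1964. Both microRNA entries were at 0 in all mcDC libraries, whose depth is lowest. Over the alternatives run, the adjusted p of limma reached 0.17 for Treml4, 0.13 for Cnr2, 0.079 for Col17a1 and 0.14 for Ryr3. The microRNA entries reached 0.74 for Mir7030, whose call was lost in 10 of 17 alternatives, and 0.49 for Mir1964, whose call was lost in 1.

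**Figure D5:**
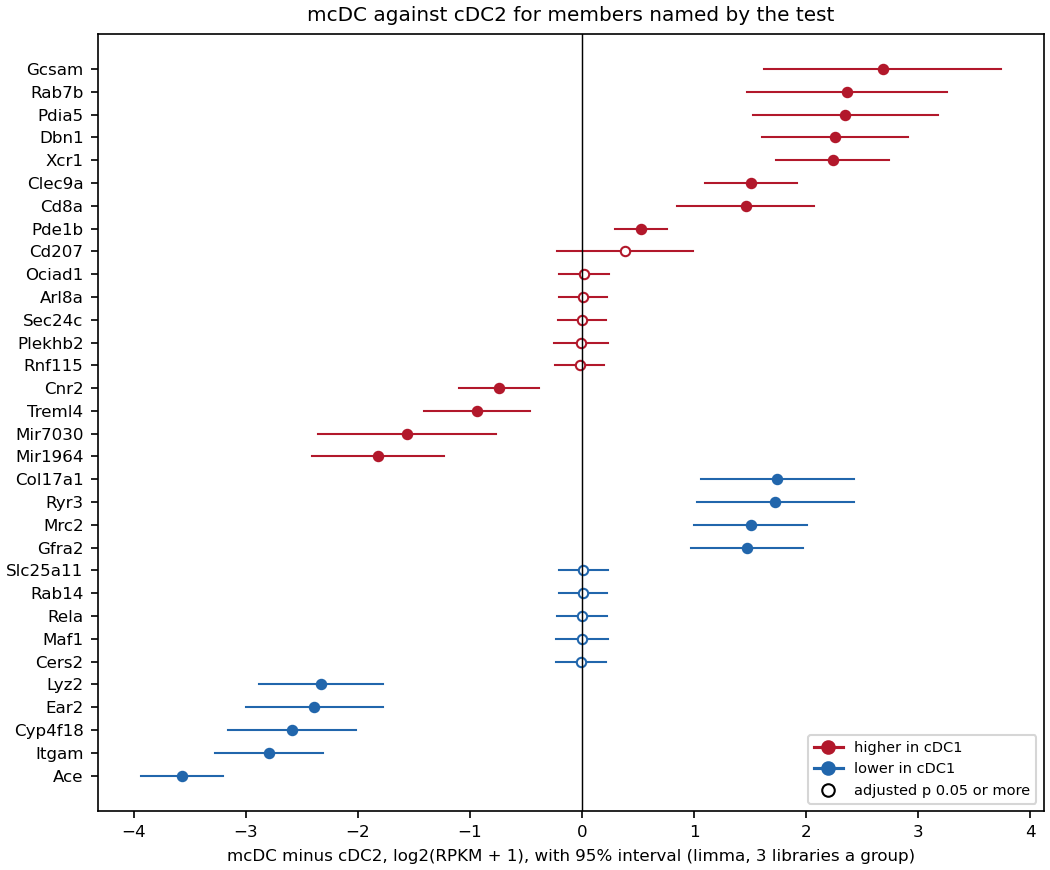
Points give the difference mcDC minus cDC2 on the log2(RPKM + 1) scale and lines its 95% interval (limma, 3 libraries a group), open where the adjusted p was 0.05 or more. Of the genes shown, Gcsam has the largest rise (2.68) and Ace the largest fall (-3.57), and Sec24c and Rela lie close to 0.

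Markers of other cells were present and moved with some members. Monocyte markers (18 genes) summed to 387 to 591 RPKM in cDC1, 1867 to 2806 in cDC2 and 868 to 1015 in mcDC, and 11 of the 17 that passed were lower members, among them Lyz2, Ace, Csf1r and Cx3cr1, while 1, Treml4, was a higher member. Neutrophil markers (15 genes) summed to 15.3 to 49.8 RPKM in cDC1, 204 to 1776 in cDC2 and 41.1 to 57.4 in mcDC, with Camp at 0 in all mcDC libraries. Of 15 neutrophil markers 2 were lower members, 13.3% where all genes gave 12.9%. Mmp9 (17395), a gelatinase, was at 0.114, 0.286 and 0.390 RPKM in cDC1, with 40.5, 27.1 and 18.5 in cDC2 and 24.4, 15.3 and 7.40 in mcDC. Csf3r, the G-CSF receptor, was at 1.80, 0.535 and 0.925 RPKM in cDC1, against 21.6, 33.1 and 29.4 in cDC2 and 9.94, 6.66 and 3.39 in mcDC. Mmp9 was highest in cDC2 replicate 1, the cDC2 library with the lowest neutrophil sum. The part of monocytes and neutrophils in these members was not tested.

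B cell markers (13 genes) summed to 39.7 to 49.2 RPKM in cDC1, 129 to 149 in cDC2 and 106 to 158 in mcDC, and 6 of the 11 that passed were lower members. Cd22 (12483), an inhibitory receptor for sialic acid, was at 5.87, 5.59 and 5.16 RPKM in cDC1, with 64.0, 68.6 and 58.0 in cDC2 and 49.7, 42.7 and 34.2 in mcDC. Cd72 (12517), the receptor of CD100, was at 5.69, 3.90 and 3.66 RPKM in cDC1, against 37.3, 34.6 and 34.2 in cDC2 and 45.2, 39.6 and 40.3 in mcDC. Both were among the lower members. In contrast Ms4a1, CD20, was a higher member, at 12.7, 14.99 and 13.3 RPKM in cDC1, with 5.23, 2.91 and 1.80 in cDC2 and 8.44, 6.11 and 1.42 in mcDC. T cell markers (14 genes) summed to 55.5 to 98.6 RPKM in cDC1, 26.3 to 42.9 in cDC2 and 49.3 to 91.5 in mcDC, and 2 were higher members and 1 was a lower one. Cd8b1 (12526), the CD8 beta chain, was at 8.91, 9.54 and 12.8 RPKM in cDC1, against 0.307, 0.368 and 0.340 in cDC2 and 0, 0.127 and 0 in mcDC. Cd3g was at 7.90, 6.03 and 13.6 RPKM in cDC1, with 2.02, 1.70 and 4.48 in cDC2 and 1.42, 2.99 and 5.50 in mcDC. The lower one was Cd5, a scavenger receptor family protein of T cells, at 6.32, 4.69 and 7.68 RPKM in cDC1, against 13.2, 10.5 and 12.1 in cDC2 and 13.6, 10.1 and 10.98 in mcDC. The T cell sums of mcDC and cDC1 overlapped, while Cd8b1 was at or near 0 in mcDC. The part of T cells in the values of Cd8b1 and Cd3g was not tested.

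Red pulp macrophage markers (17 genes) summed to 176 to 236 RPKM in cDC1, 279 to 352 in cDC2 and 573 to 1020 in mcDC, and 4 were lower members. Adgre1 (13733), the F4/80 antigen, was at 6.97, 1.76 and 4.29 RPKM in cDC1, with 95.7, 90.2 and 87.6 in cDC2 and 64.4, 46.1 and 45.1 in mcDC, highest in cDC2, where the macrophage sum was lower than in mcDC. Spic, a factor of red pulp macrophages, was at 12.8, 8.46 and 10.7 RPKM in cDC1, against 13.5, 14.9 and 26.9 in cDC2 and 29.5, 31.2 and 45.9 in mcDC, highest in mcDC. NK cell markers (13 genes), at 52.0 to 95.3 RPKM in cDC1, 34.2 to 62.4 in cDC2 and 100.4 to 278 in mcDC, gave 0 members in either direction. Erythroid and platelet markers (12 genes) also gave 0, with sums of 6.98, 6.22 and 13.7 RPKM in replicate 1 of cDC1, cDC2 and mcDC and of 20.4 to 165 in the other libraries. Plasmacytoid markers (17 genes) summed to 199 to 315 RPKM in cDC1, 262 to 332 in cDC2 and 303 to 476 in mcDC, with 2 higher and 4 lower members. The only stromal member, Pecam1, is also carried by leukocytes. The part of macrophages and plasmacytoid cells was likewise not tested.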

How the data were processed

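RNA was measured in 9 libraries of spleen cell subsets, prepared with a mirVana extraction and a NEBNext Ultra Directional kit, per the labels' protocols. The authors deposited RPKM values for 14862 genes in a table of all libraries. No header states the unit. It was inferred from value steps, and whole reads were recovered for 100% of nonzero values (tolerance 0.001 reads). Per the submitters' processing notes the build was mm8. Aligner, counter and annotation: not given in the sources used here. There were 0 columns of other samples.

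Members were found on RPKM as deposited, after the filter of 1 RPKM in at least 2 libraries. The members and the 46 gene lists were chosen with earlier results of these data known. Of 1155 listed names 95.5% were matched. mcDC was tested against cDC2 with limma 3.58.1 (R 4.3.3) on 11971 genes as log2(RPKM + 1), all 3 groups sharing 1 model, with a trend in the prior variance and Benjamini-Hochberg adjustment, called at 0.05. Fold changes on this scale understate those of low genes. The script was tested on simulated data.

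Replicates are numbered in accession order, since the labels number none. Named genes were the 4 markers, the 15 with the widest gaps in each direction, up to 4 and 2 members a list by gap, the extreme and the narrowest mcDC minus cDC2 differences, those at the margin of the rule and abundant list genes that were no members. Predicted genes were left out. Alternatives were quantile and median-of-ratios scaling, other filters, a pseudocount of 0.1, other fits, voom on the recovered reads and each library left out, and a block fit lacking mcDC replicate 3 was added after the data were seen. Promoters and gene order are from RefSeq GRCm38.p6 and were matched by gene number (14847 of 14862), and Python 3.11.15 was used with pandas 2.3.3 and matplotlib 3.10.9. A few genes are not reported here.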

Additional observations from a re-analysis of the deposited data

How the results depend on the processing

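The members at least 2-fold apart numbered 160 higher and 134 lower. With single libraries left out, the rule gave 1147 to 1474 higher and 1585 to 2209 lower genes. The share of members with mcDC nearer to cDC2 was 90.7% on linear RPKM and 88.5% under median-of-ratios scaling, and 89.1% to 93.3% with single libraries left out and the members kept (leaving out cDC1 libraries was added after the data were seen). Library titles fall into runs of consecutive numbers with 1 library of each subset. Same-run deviations from the group means correlated at 0.081 to 0.546 in 9 pairs, and those of different runs at -0.533 to -0.00051, so every library correlated best with its own run. This is a hint from the data that runs may be pairs. As 0.081 is under the correlation of 0.1 required of every pair, and no label names a shared day or animal, the libraries were not treated as paired. With the run as a replicate block, calls between mcDC and cDC2 numbered 773 in place of 438 (722 with mcDC replicate 3 also left out). Among higher members the block gave 117 higher and 11 lower in mcDC, and among lower members 34 and 147. With cDC2 and mcDC fitted alone there were 243 calls over all genes, 28 higher in mcDC among higher members and 11 among lower ones. Calls lower in mcDC among higher members, 4 as reported, were 7 under quantile normalization, 9 under median-of-ratios scaling, 2 without the filter and 2 by voom. Calls higher in mcDC among lower members, 22 as reported, were 12 with a pseudocount of 0.1. With single libraries left out, calls ranged from 158 to 888 over all genes, from 30 to 112 and 1 to 12 among higher members, and from 7 to 35 and 39 to 117 among lower ones, with the lowest counts without cDC2 replicate 2 and the highest without mcDC replicate 1. Without cDC2 replicate 1 there were 279 calls over all genes, and without cDC2 replicate 3 there were 188. Only 23 of the named genes were followed through the 17 settings, and all 23 kept their direction. Of the 22 of them called between mcDC and cDC2, 12 kept the call in all settings. Calls given for other named genes, among them Serpinb6b, Fcgr3 and Jag2, were not followed in this way. The mcDC depth of 5.14 to 8.22 M limits what is seen of genes near 1 RPKM.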
